A study of Mus musculus with 4 samples.

Results

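The TLR7 sensing pathway was examined in RNA from mouse skin cells labelled as regulatory T cells, through 9 genes taken by name from 55487 gene IDs. They are the receptors Tlr7, Tlr9 and Tlr2, the trafficking factor Unc93b1, the adaptor Myd88, the kinases Irak4 and Irak1, the ubiquitin ligase Traf6 and the transcription factor Irf5. All 9 names were found once in every library. The cells came from shaved back skin on which psoriasis-like dermatitis had been raised by daily application of 60 mg of Aldara, a cream with 5% imiquimod, so imiquimod was common to both groups. The non-UVB group (2 libraries) received no irradiation and the UVB group (2 libraries) received narrow-band ultraviolet B on alternate days for 3 exposures. Libraries are numbered 1 and 2 within each group, and pairs of values are given in that order. The sources used here do not give strain, age, the time from the last cream or exposure to cell isolation, the number of animals behind a library, or the gate used to isolate the cells.

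Imiquimod is a small synthetic agonist of TLR7, a receptor that detects single-stranded RNA inside endosomes and is best known from plasmacytoid dendritic cells, macrophages and B cells. TLR7 and the DNA receptor TLR9 are carried to the endosome by UNC93B1. Both signal through MYD88, which assembles IRAK4 and IRAK1 and engages the ubiquitin ligase TRAF6, and from there NF-kappaB and interferon regulatory factors such as IRF5 are activated. TLR2 detects bacterial lipoproteins at the cell surface and uses the same adaptor.

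The data collected were deposited gene levels in TPM (a transcript level scaled for gene length and to the same total in each library). The FPKM values rested on 2.38 to 4.2 gigabases per library. Foxp3, the defining factor of regulatory T cells, was listed at 0 TPM in library non-UVB 1 and reached 3.49 TPM in UVB 1, while non-UVB 2 held 19.4 TPM and UVB 2 held 19.3 TPM, so the defining marker was missing or low in the libraries numbered 1. Those libraries held 9623 and 8943 TPM of markers of gamma-delta T and innate lymphoid cells (9 genes found), against 176 and 311 TPM in those numbered 2. Keratinocyte markers ran the other way, at 217 and 453 TPM against 3521 and 2946 TPM. Of 2 leading keratinocyte markers, Krt14 ranged from 101 to 1527 TPM and Sfn from 50.5 to 719 TPM. Among 13 markers of CD4 T cells Cd3g ranged from 848 to 2701 TPM and Trbc2 from 910 to 1418 TPM. Of the 13, 6 were higher in both libraries numbered 2, Cd4 among them, and 2 in both numbered 1, Cd3g among them. Cd4, named here with its levels already known, stood at 6.02 TPM in non-UVB 1 and 33.9 TPM in UVB 1. In non-UVB 2 it reached 138 TPM and in UVB 2 71.6 TPM. Among regulatory T cell markers Tnfrsf4 ranged from 710 to 3472 TPM and Ctla4 from 314 to 1496 TPM. Of the 11 regulatory T cell markers, 9, Foxp3 among them, were higher in both libraries numbered 2, beside 22.5% of all tested genes. In both numbered 1, 1 was higher, beside 18.5%. Of 8 mast cell and basophil markers, 7 were listed at 0 in all 4 libraries and Cpa3 reached at most 0.033 TPM. Haemoglobin genes, led by Hba-a2 and Hbb-bs, whose near-identical copies may share reads, took 11.7% of the TPM of non-UVB replicate 1 and 0.153% to 0.441% elsewhere. Whether replicates stem from different animals is not stated, and the p-values cover no more than the spread between libraries, which may be technical.

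The receptor for imiquimod was listed at or near 0. Tlr7 (ENSMUSG00000044583, GRCm38 chromosome X, 167304929 to 167330558) was listed at 0 TPM in both libraries numbered 1, and it had 0.0658 TPM in non-UVB 2 and 0.063 TPM in UVB 2. Multiplying the deposited coverage by the 4082 bases of its annotated exons gives about 110 and 101 sequenced bases in these 2 libraries. That corresponds to roughly 1.1 and 1.01 reads of 100 bp. Neither irradiation nor the library number could therefore be compared for this gene. Tlr9 (chromosome 9, 106222598 to 106226883) was listed at 0 TPM in all 4 libraries. A value of 0 in these tables does not show that a transcript was absent, since broadly used genes such as Map3k7 and Ikbkg were also listed at 0 in non-UVB 1, where 15.1% of tested genes were at 0.

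Cell types in which Tlr7 is commonly found were represented unequally. Of 11 plasmacytoid dendritic cell markers, 5 were listed at 0 in all 4 libraries, including the defining surface lectin Siglech, and the chemokine receptor Ccr9, chosen after its values were seen, reached at most 2.17 TPM. The marker list still summed to 155 to 499 TPM, led by Ly6d and Bst2, which other cells express as well. Ly6d had 64.9 and 282 TPM in the unirradiated libraries and 116 and 478 TPM in the irradiated libraries, and Bst2 had 46.6 and 106 TPM against 18.2 and 2.55 TPM. Of 10 B cell markers, 6 were listed at 0 throughout, while Blk had 254 TPM in both libraries numbered 1 and at most 0.649 TPM in those numbered 2, and is also a gene of gamma-delta T cells. Cd79b, a chain of the B cell receptor complex, was at 61.9 and 18.5 TPM in unirradiated libraries and at 21.2 and 40 TPM in irradiated ones. Markers of macrophages and dendritic cells were abundant, with 20 genes summing to 13516 and 6163 TPM in the unirradiated libraries and to 22564 and 14290 TPM in the irradiated libraries, led by Cd74 (1940 to 4237 TPM) and Fcer1g (1056 to 3659 TPM).

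**Figure D1:**
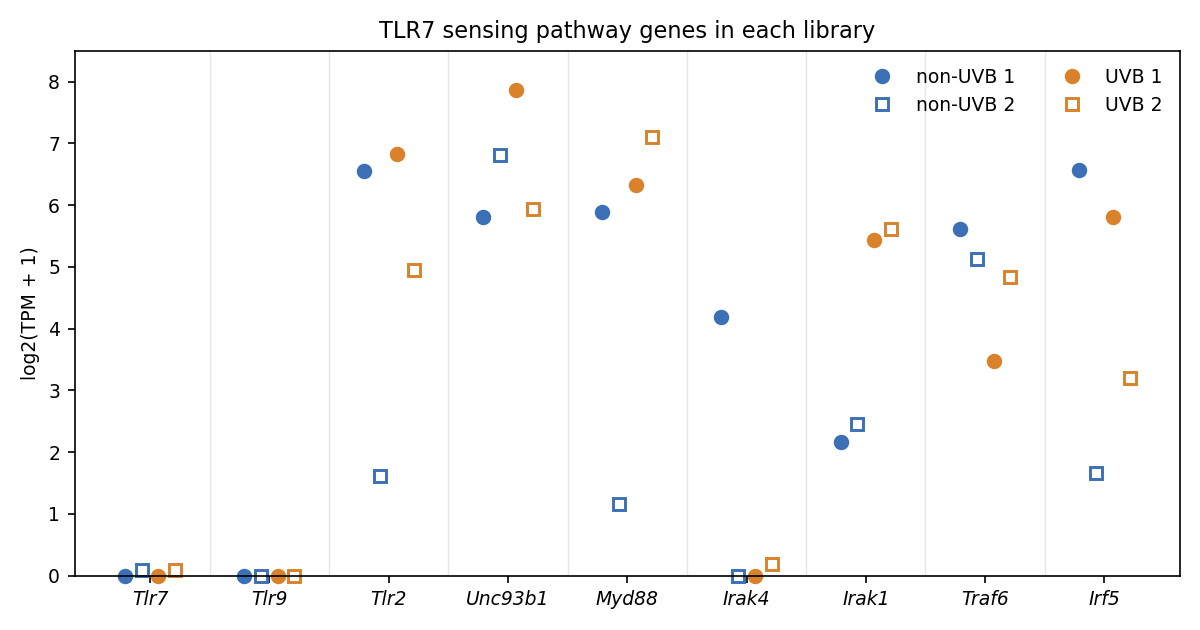
Level of each of the 9 pathway genes as log2(TPM + 1) on the vertical axis, 1 point per library, with colour for irradiation and filled circles or open squares for library numbers 1 and 2. Tlr7 and Tlr9 lie at or near 0 in all 4 libraries, and Tlr2 and Irf5 separate by library number. Irak1 separates the UVB from the non-UVB libraries, as do Myd88 (higher) and Traf6 (lower) with wider gaps within the groups.

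Tlr2, the member that senses lipoproteins at the cell surface (chromosome 3, 83836272 to 83841767), stood at 92.4 and 2.05 TPM in the unirradiated libraries numbered 1 and 2, and irradiation went with 113 and 29.8 TPM in the same order. The irradiation groups overlapped, whereas both libraries numbered 1 stood above both numbered 2. On the log2(TPM + 1) scale, which understates differences of low genes, the UVB libraries were higher by 1.81 ± 2.02 (SE, n = 2 per group), and the test did not call it (limma adjusted p = 1.0 after Benjamini-Hochberg adjustment over 10286 genes). The difference was 0.29 within number 1 and 3.34 within number 2. Without non-UVB replicate 1 it was 4.28, and without non-UVB replicate 2 it turned to -0.66.

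Unc93b1, the chaperone that carries TLR7 and TLR9 from the endoplasmic reticulum (chromosome 19, 3935186 to 3949340), was the most abundant member, with a mean of 115 TPM. It had 54.7 and 112 TPM in the unirradiated libraries and 232 and 60.6 TPM in the irradiated libraries, so the groups overlapped and neither number was consistently higher. The difference with UVB was 0.60 ± 0.92 log2 (SE, n = 2 per group; limma adjusted p = 1.0). The direction was opposite within the numbers, 2.07 in number 1 and -0.87 in number 2, and it turned to -0.01 when libraries were scaled to the same median and to -0.36 without UVB replicate 1. The transporter was thus present at 54.7 TPM or more in every library, including the 2 in which Tlr7 and Tlr9 were both listed at 0.

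Myd88, the adaptor shared by most Toll-like receptors and by the interleukin-1 receptor family (chromosome 9, 119335934 to 119341411), was at 58 and 1.23 TPM in unirradiated libraries and at 79.1 and 137 TPM in irradiated ones. Both UVB libraries lay above both non-UVB libraries, but the gap between the non-UVB libraries was wider than that between the groups' nearest values. The difference was 3.19 ± 1.85 log2 (SE, n = 2 per group) and did not pass (limma adjusted p = 0.807). It rested on non-UVB replicate 2, since it was 0.83 without that library and 5.56 without non-UVB replicate 1. The 1.23 TPM in that library corresponded to about 44.4 reads, against 2575 to 4375 in the other 3. The exons of Myd88 share 290 of 2576 bases with those of Acaa1a on the opposite strand, which had 0 and 3.86 TPM in unirradiated libraries and 67.7 and 40.2 TPM in irradiated ones, and, with strandedness not stated, reads there cannot be assigned to either gene.

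Irak4, the first kinase recruited by MYD88 (chromosome 15, 94543643 to 94581815), had 17.3 TPM in non-UVB 1 and 0.144 TPM in UVB 2, and was listed at 0 in non-UVB 2 and UVB 1. Non-UVB 1 held about 1162 read equivalents of the gene and UVB 2 about 6.65. Having reached 1 TPM in only 1 library, Irak4 did not enter the test. Among tested genes, 15.1% were listed at 0 in non-UVB replicate 1, the library where Irak4 was highest, and 5.07%, 5.19% and 2.29% in non-UVB replicate 2, UVB replicate 1 and UVB replicate 2. Of tested genes, 24.1% had one non-UVB library below 1 TPM and the other at 10 TPM or more, as Irak4 had, and 11.8% did so between the UVB libraries. Irak4 was not itself a tested gene, and these shares leave out all genes that reached 1 TPM in only 1 library. The exons of Irak4 share 395 of 5021 bases with the opposite-strand gene Twf1, at 13.7, 2.39, 0.0903 and 8.53 TPM in libraries non-UVB 1, non-UVB 2, UVB 1 and UVB 2.

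Irak1, the kinase that IRAK4 phosphorylates (chromosome X, 74013914 to 74023918), separated the irradiation groups most tightly among the 6 tested members. It had 3.48 and 4.49 TPM in the unirradiated libraries and 42.4 and 48.2 TPM in the irradiated libraries, a mean of 3.99 ± 0.717 against 45.3 ± 4.12 TPM (SD, n = 2 per group), or 11.4-fold. The groups did not overlap and both were tight. The difference was 3.22 ± 0.98 log2 (SE, n = 2 per group), or 2.96 above the median tested gene, with 3.28 within number 1 and 3.16 within number 2. It did not pass after adjustment over all genes (limma adjusted p = 0.337, unadjusted p = 0.031). Across the alternatives that kept all 4 libraries, the unadjusted limma p ran from 0.00885 without the intensity trend to 0.103 with median scaling. It was 0.065 with quantile normalization, and Irak1 passed after adjustment under none of them. With any 1 library left out the difference was between 3.07 and 3.37, while its unadjusted limma p was 0.313 and 0.381 without UVB replicates 1 and 2. Of all tested genes, 9.97% were likewise higher at an unadjusted limma p under 0.05, so Irak1 was 1 of 1026 such genes. The irradiated libraries also had more genes at 1 TPM or above, 10317 and 10227 against 7825 and 8033, and higher macrophage and dendritic cell marker sums within each number, and the part of either in the level of Irak1 was not tested.

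Traf6, the ubiquitin ligase that links the IRAK kinases to NF-kappaB (chromosome 2, 101678429 to 101701669), was the one tested member with a lower mean under UVB on the log2 scale, where Irf5 and Unc93b1 also turned lower with median scaling. It had 48 and 33.8 TPM in unirradiated libraries and 10.1 and 27.7 TPM in irradiated ones, and the groups did not overlap. The difference was -1.21 ± 0.93 log2 (SE, n = 2 per group) and did not pass (limma adjusted p = 0.944). It was -2.14 within number 1 and -0.28 within number 2, so UVB replicate 1 carried most of it, and it was -0.53 without that library. Neither Traf6 nor Tlr2 or Unc93b1 shares annotated exon bases with another gene, and Irak1 shares them with 2 microRNA genes.

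Irf5, a transcription factor of myeloid cells that drives inflammatory cytokine genes downstream of MYD88 (chromosome 6, 29526625 to 29541871), was at 93.9 and 2.17 TPM in unirradiated libraries and at 54.7 and 8.17 TPM in irradiated ones. The irradiation groups overlapped entirely, whereas the libraries numbered 1 exceeded those numbered 2 by 14.4-fold on the mean TPM. The difference with UVB was 0.38 ± 2.17 log2 (SE, n = 2 per group; limma adjusted p = 1.0), although the mean TPM itself was lower with UVB, 31.4 ± 32.9 against 48.1 ± 64.9 (SD, n = 2 per group). Its sign also turned with quantile normalization (-0.38), median scaling (-0.22), and without non-UVB replicate 2 (-2.07) or UVB replicate 1 (-0.92). Irf5 shares 411 of 2905 exon bases with the opposite-strand gene Tnpo3, which was at 0.0121, 13.6, 19.3 and 32.4 TPM in libraries non-UVB 1, non-UVB 2, UVB 1 and UVB 2.

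**Figure D2:**
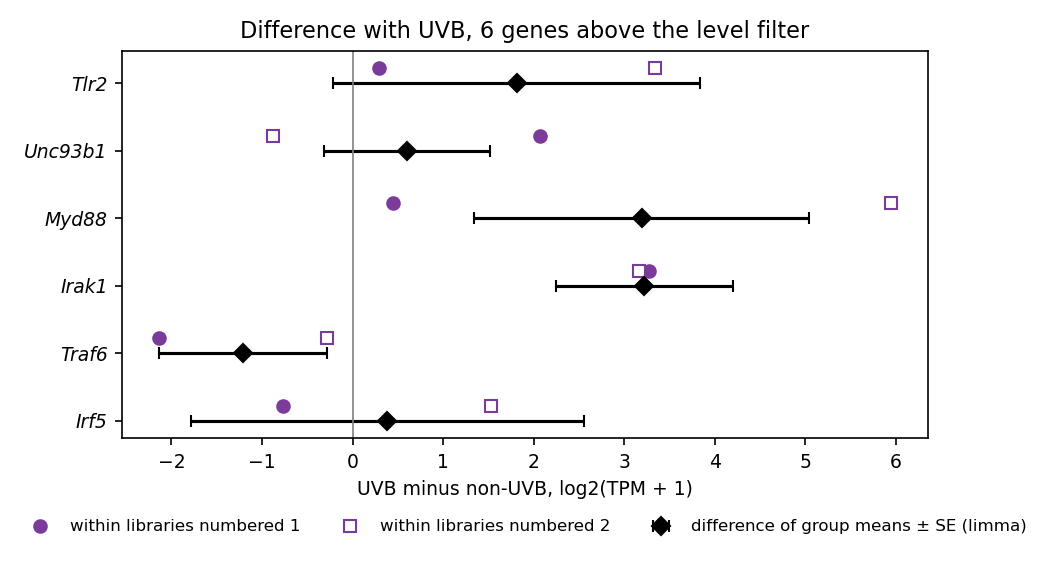
Difference of UVB from non-UVB libraries on the log2(TPM + 1) scale for the 6 members above the level filter. Diamonds are differences of group means with the SE from limma (n = 2 per group), and circles and squares are the differences within library numbers 1 and 2, which nearly coincide for Irak1 (3.28 and 3.16) and lie on opposite sides of 0 for Unc93b1 and Irf5.

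Counted over the pathway, 6 of the 9 members passed the filter of at least 1 TPM in at least 2 libraries, and Tlr7, Tlr9 and Irak4 did not. None of the 6 was called with UVB at a limma adjusted p under 0.05, where 0% of all tested genes were called, and 1, Irak1, had an unadjusted p under 0.05, against 11.3% of all tested genes (9.97% higher and 1.37% lower). Of the 6, Myd88 and Irak1 had both UVB libraries above both non-UVB libraries, as did 23.2% of tested genes, and Traf6 had both below, as did 9.71%. Among all 9 members, 5 had a higher mean with UVB on the log2 scale. The median difference of the 6 was 1.20, or 0.94 above the median of 0.26 of all tested genes, and the median over all 9 members was 0.38. Without non-UVB replicate 2 the median of the 6 was 0.09, and without non-UVB replicate 1 it was 2.95.

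Tlr2 and Irf5 followed the library number instead. They were higher in both libraries numbered 1, as were 18.5% of tested genes, and none of the 6 was higher in both numbered 2, against 22.5%. Tlr2 had a mean of 103 ± 14.6 TPM in the libraries numbered 1 and of 15.9 ± 19.7 TPM in those numbered 2 (SD, n = 2 per number), and Irf5 had 74.3 ± 27.7 against 5.17 ± 4.24 TPM. The gamma-delta T markers stood in the same order, Trdv4 at 4422 and 3531 TPM against 119 and 159 TPM and Trgc1 at 1884 and 2575 TPM against 4.86 and 8.15 TPM. Macrophage and dendritic cell markers were also higher in number 1 within each group, at 13516 against 6163 TPM in unirradiated libraries and at 22564 against 14290 TPM in irradiated ones, and 8 of the 18 tested markers of that list were higher in both libraries numbered 1. Of 11 markers of neutrophils, which also carry TLR2, number 1 held 579 (non-UVB) and 389 (UVB) TPM in sum, and number 2 held 3276 and 2342 TPM. Most of that sum came from S100a8 (252 to 2249 TPM) and S100a9 (91.6 to 985 TPM), the 2 of 5 tested markers that were higher in both libraries numbered 2. The other 3 tested markers overlapped between the numbers, and 4 of the 11, the defining Ly6g among them, were listed at 0 in all 4 libraries. Keratinocyte markers stood in the same order as S100a8 and S100a9, at 217 and 453 TPM in number 1 and 3521 and 2946 TPM in number 2. Which cells held S100a8 and S100a9 was not tested, so the sum is not a measure of neutrophils. The part of these cell types in the levels of Tlr2 and Irf5 was not tested. In RNA from pooled cells, fewer cells of a type and less RNA per cell cannot be told apart.

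**Figure D3:**
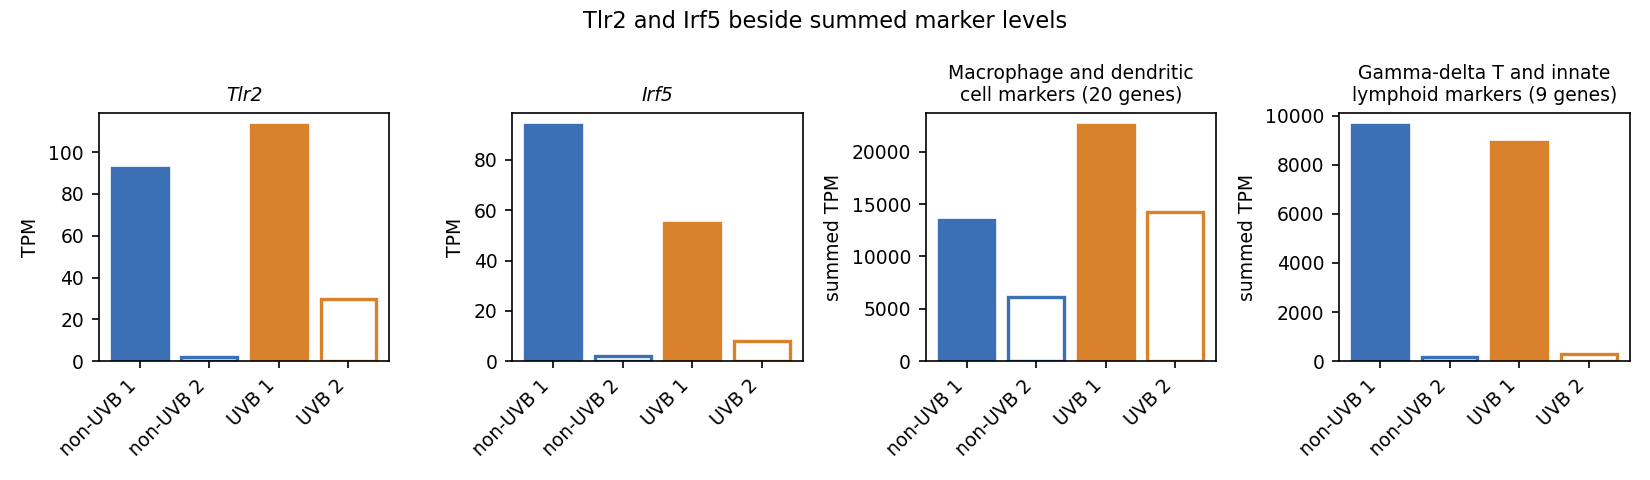
Levels in TPM of Tlr2 and Irf5 and summed TPM of macrophage and dendritic cell markers (20 genes) and of gamma-delta T and innate lymphoid cell markers (9 genes), 1 bar per library, filled for number 1 and open for number 2. All 4 quantities are higher in number 1 than in number 2 of the same group, and UVB 2 has more macrophage marker signal (14290 TPM) than non-UVB 1 (13516 TPM) but less Tlr2 and Irf5.

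The remaining Toll-like receptors were mostly at or near 0. Of 9 others, 5 stayed below 1 TPM in every library, and the lipopolysaccharide receptor Tlr4 and the second single-stranded RNA receptor Tlr8 were listed at 0 in all 4. Tlr3, a receptor for double-stranded RNA, reached at most 0.0132 TPM. Tlr13, an endosomal receptor for bacterial ribosomal RNA, was at 12.2 and 17 TPM in libraries non-UVB 1 and UVB 1 and at 0.0921 and 0.0914 TPM in the libraries numbered 2, the same order by number as Tlr2. Tlr1, a partner of TLR2, was at 0.0278 and 0.238 TPM in unirradiated libraries and at 38.2 and 4.08 TPM in irradiated ones, and Tlr5, the flagellin receptor, reached 42.2 TPM in non-UVB replicate 1 and at most 0.0708 TPM elsewhere. Of the 2 tested, Tlr1 and Tlr13, neither passed (limma adjusted p = 0.446 for Tlr1). Tlr1 was under 1 TPM in both non-UVB libraries and entered the test only through the UVB libraries.

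Several genes that equip the endosome were abundant. Of 16 cofactor and processing genes found, 14 were tested, none passed in either direction, and 9 had a higher mean with UVB. Ctss, which encodes cathepsin S, had 854 and 445 TPM in unirradiated libraries and 1623 and 981 TPM in irradiated ones. Both UVB libraries were higher, by 1.03 ± 0.51 log2 (SE, n = 2 per group; limma adjusted p = 0.698). Lgmn, an endosomal protease that takes part in receptor processing, had 535 and 111 TPM against 765 and 312 TPM, and the coreceptor Cd14 had 764 and 234 TPM against 649 and 435 TPM. Slc15a4, an endolysosomal transporter required for TLR7 signalling, was listed at 0 in both libraries numbered 1 and stood at 0.106 and 2.6 TPM in those numbered 2. Ap3b1, a subunit of the adaptor complex that sorts cargo to endosomes, was chosen after its values were seen as the 1 member of this list with an unadjusted limma p under 0.05, at 0.0504 and 0.328 TPM in unirradiated libraries and 97.3 and 28 TPM in irradiated ones. It passed the level filter only through the irradiated libraries, which favoured a higher value there, so its p-value is no support for a difference.

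Below the receptors, 22 adaptor and kinase genes were found and 15 tested. None passed in either direction, 8 had a higher and 7 a lower mean with UVB, and 3 had an unadjusted limma p under 0.05, all higher, as were 9.97% of all tested genes. These were Map3k7, which encodes the kinase TAK1 activated by TRAF6, and Ikbkg and Ikbke, chosen after their values were seen, which encode the NF-kappaB regulator NEMO and an interferon-inducing kinase. Map3k7 was listed at 0 and at 0.0939 TPM in unirradiated libraries and stood at 36.2 and 15.9 TPM in irradiated ones, or a difference of 4.58 ± 0.999 log2 (SE, n = 2 per group; limma adjusted p = 0.223). Ikbkg had 0 and 0.066 TPM against 11.3 and 9.78 TPM, and Ikbke had 0.0276 and 0.413 TPM against 16.6 and 9.96 TPM. Like Irak1, all 3 were low in both non-UVB libraries, which also had fewer genes at 1 TPM or above, as given beside Irak1. Unlike Irak1, all 3 were under 1 TPM in both non-UVB libraries and passed the level filter only through the UVB libraries. The filter thus favoured a higher value with UVB, and their p-values are no support for a difference.

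The 3 most abundant members of that list overlapped between the groups. Ube2v1 and Ube2n, the pair of ubiquitin-conjugating proteins that work with TRAF6, had 184 and 113 TPM in unirradiated libraries against 164 and 82.2 TPM in irradiated ones, and 68.2 and 157 TPM against 139 and 122 TPM. The kinase Ikbkb had 69.2 and 103 TPM against 55.7 and 116 TPM. Irak2, a kinase that can stand beside IRAK1, followed the number with 82.3 and 40.8 TPM in libraries non-UVB 1 and UVB 1 and 0.263 and 15.5 TPM in the libraries numbered 2. The bridging adaptor Tirap reached at most 0.0368 TPM. Ticam1, the adaptor of TLR3, had 24.9 and 36.7 TPM in unirradiated libraries and 2.03 and 13.6 TPM in irradiated ones, without overlap but also without passing (-2.23 ± 1.29 log2, SE, n = 2 per group; limma adjusted p = 0.807).

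**Figure D4:**
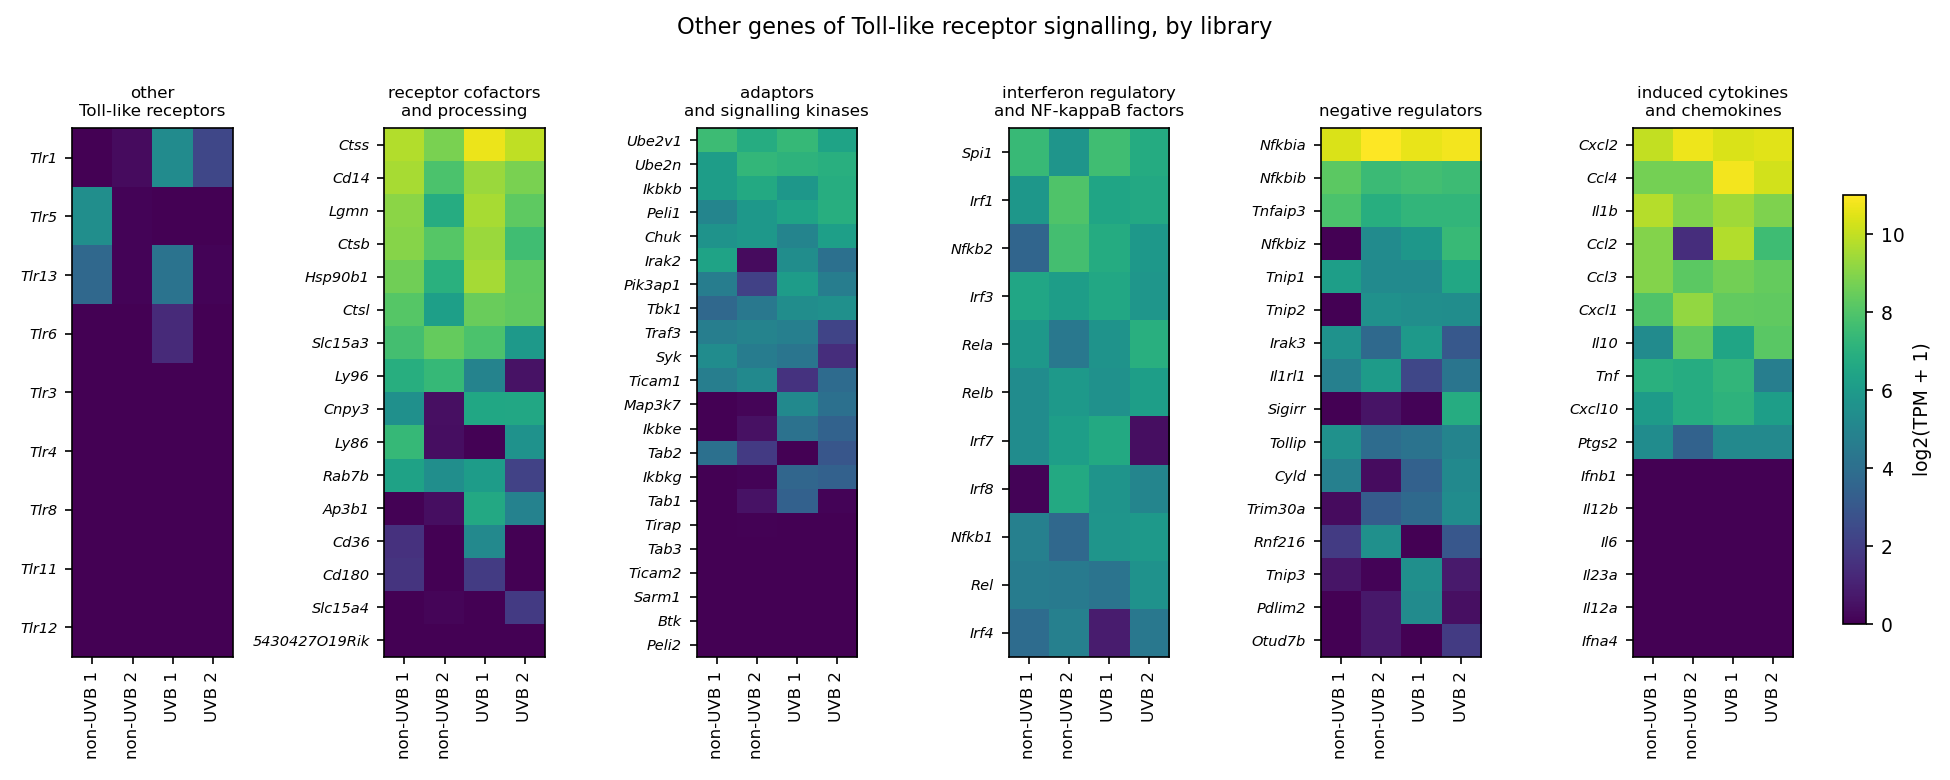
Levels of 90 other genes of Toll-like receptor signalling as log2(TPM + 1), in colour, with libraries in columns and genes of each group in rows ordered by mean level. The endosomal proteases, the inhibitor Nfkbia and the chemokine genes other than Ccl2 are bright in all 4 libraries. Ccl2, chosen after its values were seen, was at 493 and 1.7 TPM in unirradiated libraries and at 854 and 191 TPM in irradiated ones. Most other Toll-like receptors, Tirap and 6 of the induced cytokine genes are dark throughout.

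Transcription factors and inhibitors were detected widely. All 11 interferon regulatory and NF-kappaB family genes, a list that includes the myeloid factor Spi1, were tested and none passed, with 7 higher and 4 lower means after irradiation. Spi1, the most abundant, had 172 and 52 TPM in unirradiated libraries and 199 and 107 TPM in irradiated ones, again with both libraries numbered 1 above both numbered 2. Irf1, an interferon-induced factor, had 55.9 and 252 TPM against 86.8 and 99.6 TPM, and Nfkb2 had 11.2 and 211 TPM against 107 and 56.8 TPM. Irf7, the factor through which TLR7 induces type I interferon, had 39.4 and 70.7 TPM in unirradiated libraries and 103 and 0.31 TPM in irradiated ones, and Irf8 had 0.0649 and 102 TPM against 51.2 and 31.4 TPM. Both groups of each overlapped.

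Of 16 negative regulators, 12 were tested and none passed, with 5 higher and 7 lower means. Nfkbia, the NF-kappaB inhibitor that NF-kappaB itself induces, was abundant and even, at 1317 and 2151 TPM in unirradiated libraries and 1571 and 1780 TPM in irradiated ones, or a difference of -0.01 ± 0.36 log2 (SE, n = 2 per group). Nfkbib had 301 and 179 TPM against 200 and 186 TPM, and the deubiquitinating enzyme Tnfaip3 had 237 and 119 TPM against 151 and 148 TPM. Irak3, a kinase-dead inhibitor found in macrophages, had 48.4 and 58.5 TPM in libraries non-UVB 1 and UVB 1 against 12.4 and 7.08 TPM in the libraries numbered 2.

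Cytokine and chemokine genes that Toll-like receptors can induce divided by level. Of 16, 6 were listed at 0 in all 4 libraries, namely Il6, Il12a, Il12b, Il23a, Ifnb1 and Ifna4, which were chosen after their values were seen, and the other 10 were tested. Cxcl2, a neutrophil attractant, had 1014 and 1694 TPM in unirradiated libraries and 1344 and 1466 TPM in irradiated ones, and Il1b had 886 and 484 TPM against 698 and 465 TPM. Ccl4, a chemokine of activated macrophages and lymphocytes, had 417 and 415 TPM in unirradiated libraries and 1780 and 1219 TPM in irradiated ones, or a difference of 1.82 ± 0.35 log2 (SE, n = 2 per group). It did not pass either (limma adjusted p = 0.223, unadjusted p = 0.00687), and none of the 10 did, with 6 higher and 4 lower means. Macrophage and dendritic cell markers, given above, had a higher mean with UVB for 17 of 18 tested genes, and their part in the level of Ccl4 was not tested.

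Other receptors that signal through MYD88 were examined because the adaptor is not used by Toll-like receptors alone. Of 6 found, 5 were tested and none passed, with 2 higher and 3 lower means. Il18rap had 32.1 and 36.7 TPM in unirradiated libraries and 0.0215 and 18.4 TPM in irradiated ones, and the interleukin-33 receptor Il1rl1 had 26.4 and 64.4 TPM against 4.09 and 18.6 TPM, in both cases without overlap. Il18r1, the other chain of the interleukin-18 receptor, was at 0 and 158 TPM against 37.2 and 3.87 TPM. Il1rap, the accessory chain shared by interleukin-1 and interleukin-33 receptors, was chosen after its values were seen as the 1 gene with an unadjusted limma p under 0.05, at 2.58 and 8.17 TPM in unirradiated libraries and listed at 0 in both UVB libraries. It passed the level filter only through the unirradiated libraries, which favoured a higher value there, so its p-value is no support for a difference.

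Imiquimod is also reported to act on adenosine receptors and on the NLRP3 inflammasome. A list of 9 other reported targets covered these and also held Nqo2, which belongs to neither and is named for that reason. Of the 9 genes, 7 were tested, none passed, and 6 had a higher mean with UVB. Adora2a, an adenosine receptor of T cells and macrophages, had 63.7 and 0.371 TPM in unirradiated libraries and 37.5 and 129 TPM in irradiated ones. Adora2b was at 34.5 and 49.7 TPM in libraries non-UVB 1 and UVB 1 and at 0 and 0.0631 TPM in the libraries numbered 2. The inflammasome adaptor Pycard had 22.9 and 54.2 TPM against 32.4 and 26.6 TPM, and the sensor Nlrp3 had 5.81 and 0 TPM against 2.46 and 4.14 TPM. Nek7, a kinase needed for NLRP3 assembly and chosen after its values were seen, was at 0.0412 and 1.1 TPM in unirradiated libraries and at 33.5 and 28.9 TPM in irradiated ones (limma adjusted p = 0.235).

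Over all 104 genes of these 8 lists that were found, 75 were tested and 0 passed limma at an adjusted p under 0.05, while 7 reached an unadjusted p under 0.05, of which 6 were higher and 1 was lower, beside 9.97% and 1.37% of all tested genes. Among the 7, Ap3b1, Map3k7, Ikbkg and Ikbke passed the level filter only through the UVB libraries, and Il1rap only through the non-UVB libraries. Higher means made up 60% of the 75, beside 61% of all 10286 tested genes, and both UVB libraries lay above both non-UVB libraries for 16 of them (23.2% of all tested genes) and below for 6 (9.71%). The lists' median difference was 0.23 log2, beside 0.26 for all tested genes. By library number, 23 of the 75 were higher in both libraries numbered 1 and 9 in both numbered 2, beside 18.5% and 22.5% of all tested genes.

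Since Tlr7 was too low to be tested, genes with a similar pattern were sought for Unc93b1. Over the 4 libraries, the closest tested gene was Kif22, a mitotic kinesin, whose centred log2(TPM + 1) values lay within 0.25 of those of Unc93b1, at 52.4 and 91 TPM in unirradiated libraries and 184 and 41.1 TPM in irradiated ones. The predicted gene Gm47551 and the antisense transcript Ino80dos lay within 0.26 of Unc93b1, but at much lower levels. Gm47551 had 1.65 and 4.26 TPM in unirradiated libraries and 10.4 and 2.71 TPM in irradiated ones, and Ino80dos had 0.000133 and 1.04 TPM against 2.42 and 0.228 TPM. At such levels the added 1 TPM narrows differences, so the closeness of Ino80dos depends on that scale. Within 0.5 lay 40 genes.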

How the data were processed

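HISAT2, StringTie, DESeq2 and the build GRCm38 (mm10) appear in the submitters' processing notes, with no roles or versions; the annotation release is not stated there. Libraries were prepared from total RNA with a SMARTer ultra-low-input kit and sequenced as 100 bp single-end reads, per the labels' protocols. The authors deposited 1 gene table per library with TPM, FPKM and coverage, per the file headers. Deposited TPM sums to 1000000 in each library, FPKM as deposited is per kilobase and library size, and deposited coverage signal is the unscaled mean read depth per base. Gene positions are those of the files, and all 9 members had the same position in GENCODE M21, used for exon lengths and overlaps. Coverage times exon length, divided by 100 bp, gave read equivalents. The product of coverage and exon length was a whole number of bases, within 0.05, for 30.7% to 36% of genes per library, so read equivalents are approximate. Amplified reads are not independent molecules, whole reads were not recovered, and no counting interval is given.

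Rows of a gene ID were summed. The 10286 genes that reached 1 TPM in 2 or more of the 4 libraries were compared on log2(TPM + 1) with limma 3.58.1 (R 4.3.3), fitting group alone with an intensity trend and Benjamini-Hochberg adjustment over all of them at 0.05. The fit was also run on simulated data, with each gene's spread estimated from these libraries and a small part of the genes changed. It recovered the simulated differences in mean size but called no gene after adjustment. A lack of calls therefore does not show that genes did not differ. Alternatives changed pseudocount, filter, unit, scaling, haemoglobin content, trend and block, or left out 1 library. Of 228 names in 19 lists, 8 were not found. Named genes were all members, the 3 most abundant of each pathway list, the 2 most abundant of each marker list (of the mast cell list 1, since the other 7 tied at 0), and a fixed few by role, of which 1 is not reported here; genes outside this are marked. Members and lists were chosen with earlier results of these data known, so lists were counted, not tested.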

Additional observations from a re-analysis of the deposited data

How the results depend on the processing

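Under all 13 alternatives limma called 0 genes at an adjusted p under 0.05, as in the reported fit, where 1167 of 10286 genes had an unadjusted p under 0.05. That number was 62 and 33 without UVB replicates 1 and 2, and 1577 and 1449 without non-UVB replicates 1 and 2; a lone library was taken to vary as much as the other group's pair. Same-numbered libraries deviated from their group means with a correlation of 0.17 over 10286 genes, but no label says that a number marks a shared animal or day, so the numbers are not taken as pairs. With the number as a replicate block, 0 genes were called and 1110 had an unadjusted p under 0.05, the median difference of the 6 tested members stayed at 1.20, and Irak1 had an unadjusted limma p of 0.053. The number of members with a higher mean under UVB was 5, moved to 3 with median scaling, and was 4 to 6 with 1 library left out. Median scaling set the median tested gene at -0.35 and quantile normalization at -0.19, against 0.26 as measured. Of 78 values of the 6 members under alternatives, 71 kept their direction. The 7 that reversed were Irf5 with quantile normalization (-0.38), median scaling (-0.22), without non-UVB replicate 2 (-2.07) or UVB replicate 1 (-0.92), Unc93b1 with median scaling (-0.0098) and without UVB replicate 1 (-0.36), and Tlr2 without non-UVB replicate 2 (-0.66); the cause was not tested. With 1 library left out, Irf5 ranged from -2.07 to 2.83, Unc93b1 from -0.36 to 1.56 and Tlr2 from -0.66 to 4.28. Irak1, Myd88 and Traf6 kept their direction under all 13, at 2.52 to 3.48, 0.83 to 5.56 and -1.89 to -0.53. Tlr7 rests on about 1 read in each of 2 libraries, non-UVB 2 and UVB 2, which had 2.47 and 2.38 gigabases. Non-UVB 1 and UVB 1, where it was listed at 0, had 3.41 and 4.2 gigabases. The part of depth in its level was not tested.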
